A study of Mus musculus with 9 samples.

Results

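Chitinases are glycoside hydrolases of family 18 that cut chitin, the polymer of N-acetylglucosamine found in insects, fungi and parasites, and chitinase-like proteins keep the fold of the family but have lost the catalytic activity. The mouse lung makes members of both kinds, and IL-4 and IL-13, acting through the transcription factor STAT6, are textbook inducers of several of them in macrophages and airway epithelium. The gene set described here holds 7 genes: the chitinase-like proteins Chil3 (Ym1), Chil4 (Ym2) and Chil1 (also called BRP-39, the mouse counterpart of human YKL-40), the chitinases Chia1 (acidic mammalian chitinase) and Chit1 (chitotriosidase), the related protein Chid1, and Ctbs, a lysosomal chitobiase. Members were taken as probe sets whose only gene symbol in the platform annotation was one of these names. This gave 10 probe sets for 7 genes, of 45101 probe sets and 18194 singly named genes on the array.

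RNA of whole lung was measured on 9 Affymetrix 3' expression arrays, 1 per mouse. All mice were female C57BL/6 aged 14 weeks, and every mouse, controls included, had received a replication-deficient adenovirus through the trachea 14 days before. AdV-IL4 encoded mouse IL-4, AdV-IL4d2 encoded its alternatively spliced form IL-4d2 of mouse, and AdV-NULL encoded no cytokine, with 3 mice in each group. The comparisons ask what each cytokine form did to these genes relative to the empty virus, and whether the 2 forms differed. The labels do not say which promoter drove the cytokine or which lung cells the virus entered, and the groups are defined by the virus alone. Signals are MAS5 intensities in arbitrary linear units, with array medians between 156 and 171. The probe set of Il4 read 338 ± 39.1 in AdV-IL4 mice, 872 ± 343 in AdV-IL4d2 mice and 43.5 ± 27.9 in AdV-NULL mice (SD, n = 3 each), higher on every array of both cytokine groups than on any AdV-NULL array. Markers of alveolar type 2 cells, which define lung, summed to 159830 to 173570 in AdV-IL4 mice, 144600 to 167180 in AdV-IL4d2 mice and 119810 to 165820 in AdV-NULL mice. Skeletal muscle markers summed to 425 to 802 in AdV-IL4 mice and 569 to 758 in AdV-IL4d2 mice, but to 57756, 5517 and 1112 in AdV-NULL mice 1, 2 and 3. Heart muscle markers summed to 1526 to 7443 in AdV-IL4 mice, 6139 to 20340 in AdV-IL4d2 mice and 15275 to 29057 in AdV-NULL mice, and fat markers to 221 to 576, 379 to 1265 and 1213 to 2781 in the same groups. In AdV-IL4 against AdV-NULL 4 of 6 heart, 3 of 4 skeletal muscle and 3 of 3 fat markers tested were called lower. Of all 23824 tested probe sets, 10.7% were called in this comparison, 1211 of them lower. The counts of called members in AdV-IL4 against AdV-NULL and of all called probe sets are also given below without AdV-NULL mouse 1 and AdV-IL4 mouse 2. Counts for the gene lists are given with all 9 arrays only. The arrays left out had the most and the least muscle signal, and without them the heart and fat sums of AdV-IL4 and AdV-NULL were still apart. The part of these tissues in the results was not tested.

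Of the 7 genes, 5 lie in 2 clusters. In the order of protein-coding genes of the RefSeq annotation, Ovgp1, Pifo, Chil5, Chia1, Chil3, Chil4 and Chil6 follow one another on chromosome 3, and Chit1 and Chil1 are neighbours on chromosome 1. Chil5 and Chil6 had no probe set with a single symbol and were not analysed here. The promoters shown are those of the 3 neighbours Chil3, Chil4 and Chia1. On the signals as deposited, these were called higher with IL-4 and were not called with IL-4d2 against AdV-NULL. The windows run 5' to 3' from 250 bases before to 50 bases after the annotated start, from RefSeq on GRCm38.p6. Capitals mark matches to TTCNNNGAA or TATAAA. Chil3 lies at chr3:106167515-106167814 on the minus strand, Chil4 at chr3:106219430-106219729 on the minus strand, and Chia1 at chr3:106113132-106113431 on the plus strand.
Chil3: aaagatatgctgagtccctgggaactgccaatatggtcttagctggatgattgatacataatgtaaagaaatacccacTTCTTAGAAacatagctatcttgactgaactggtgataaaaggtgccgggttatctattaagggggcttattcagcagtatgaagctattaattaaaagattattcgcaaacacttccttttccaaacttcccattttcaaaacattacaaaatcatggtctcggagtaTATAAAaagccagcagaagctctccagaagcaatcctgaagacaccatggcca
Chil4: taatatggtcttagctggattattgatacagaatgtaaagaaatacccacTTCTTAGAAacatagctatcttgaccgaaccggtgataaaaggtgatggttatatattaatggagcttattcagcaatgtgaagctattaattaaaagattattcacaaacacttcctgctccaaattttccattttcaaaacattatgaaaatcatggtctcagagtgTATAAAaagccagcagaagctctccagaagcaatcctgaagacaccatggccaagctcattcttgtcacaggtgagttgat
Chia1: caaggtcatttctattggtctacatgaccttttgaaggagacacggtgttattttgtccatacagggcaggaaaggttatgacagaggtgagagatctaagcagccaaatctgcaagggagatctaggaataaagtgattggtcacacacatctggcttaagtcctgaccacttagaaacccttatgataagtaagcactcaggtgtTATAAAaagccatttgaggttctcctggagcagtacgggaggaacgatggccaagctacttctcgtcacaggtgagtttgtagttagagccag

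The windows of Chil3 and Chil4 were near copies, with 251 identical bases among 271 aligned (92.6%). For Chia1 and Chil4 the aligned windows shared 188 of 277 bases (67.9%). The other pairs of members shared 137 to 173 bases, or 56.3% to 68.7% of those aligned, with the highest share for Chia1 and Chit1 on different chromosomes. Both Chil3 and Chil4 held the same TTCTTAGAA, a match to the general STAT pattern TTCNNNGAA, which 8.3% of all 32851 promoter windows hold. It began 172 bases before the start in Chil3 and 200 bases before it in Chil4, because the annotated starts of the 2 genes differ against the shared sequence. The wider pattern TTCNNNNGAA, the form STAT6 is known to favour, was in none of the members' windows and in 6.95% of all windows. TATAAA stood 3 bases before the start of Chil3, 31 before that of Chil4 and 43 before that of Chia1, and 13.6% of windows hold it. Searched on both strands as well, TTGCNNAA was found among the members in the Chil4 window (10.8% of all windows) and GAGGAA in the Chia1 window (28.3%). These are matches of letters in a short window and say nothing of whether a factor binds there.

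Chil3, Chil4, Chil1 and Chia1 were higher in AdV-IL4 lungs than in AdV-NULL lungs, while Chit1, Chid1 and Ctbs did not pass the test. Of the 10 member probe sets, 9 passed the filter on dim probe sets, and 4 of the 9 were called in AdV-IL4 against AdV-NULL, all of them higher, by limma with Benjamini-Hochberg adjustment over all 23824 tested probe sets. In this comparison 10.7% of all tested probe sets were called, 5.6% as higher. The same 4 member probe sets were those whose groups did not overlap, as was true of 29.2% of all tested probe sets, 14.5% with AdV-IL4 higher. The median log2 difference of the 9 was 0.27, beside -0.0036 for all tested probe sets. In whole lung RNA, more cells of a type and more RNA per cell cannot be told apart.

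Chil3 encodes Ym1, a secreted chitinase-like lectin that is abundant in mouse alveolar macrophages and widely used as a mark of alternative activation. Its signal was 40195, 39749 and 35107 in the 3 AdV-IL4 mice, 10814, 18513 and 16529 in the AdV-IL4d2 mice, and 12498, 21651 and 10845 in the AdV-NULL mice. Every AdV-IL4 array was above every other array, and the AdV-IL4d2 and AdV-NULL arrays lay in one range. The rise in AdV-IL4 against AdV-NULL was 2.67-fold (log2 difference 1.42 ± 0.23 SE, 95% interval 0.91 to 1.93, limma adjusted p = 0.00314). The gene was bright in all groups, averaging 38350 ± 2817 in AdV-IL4 mice, 15285 ± 3997 in AdV-IL4d2 mice and 14998 ± 5820 in AdV-NULL mice (SD, n = 3 each).

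Chil4 encodes Ym2, the closest relative of Ym1, known in mice from allergic airways and the stomach. The AdV-IL4 mice read 20941, 3672 and 5574, the AdV-IL4d2 mice 145, 606 and 289, and the AdV-NULL mice 697, 1816 and 270. All AdV-IL4 arrays were above all others, yet mouse 1 of that group stood far above its group mates at 20941. Chil4 rose 10.5-fold in AdV-IL4 against AdV-NULL (3.39 ± 0.71, 95% interval 1.86 to 4.93, limma adjusted p = 0.0108), and this difference ranked 18th among the 23824 probe sets. Its group SDs were 94.1% of the mean in AdV-IL4 mice, 68.1% in AdV-IL4d2 mice and 86.0% in AdV-NULL mice, where those of Chil3 were 7.35%, 26.1% and 38.8%. Without AdV-IL4 mouse 1 the log2 difference was 2.66, without AdV-NULL mouse 3 it was 2.73, and without AdV-NULL mouse 2 it was 4.06, and Chil4 was called in each of the 9 fits that left out 1 array.

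A further probe set is annotated to both Chil4 and Chil3 and is no member by the rule. It read 42282, 36623 and 31632 in AdV-IL4 mice, 3284, 6898 and 5822 in AdV-IL4d2 mice, and 5590, 11294 and 3159 in AdV-NULL mice. The AdV-IL4 arrays again stood apart from the rest, with a rise of 6.25-fold against AdV-NULL (2.64 ± 0.37, limma adjusted p = 0.00118), between the values of the single-symbol probe sets. Since Chil3 and Chil4 are near-identical paralogs and the probe sequences were not used here, how far each probe set reads the other gene was not tested.

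Chil1 encodes a chitinase-like protein without enzyme activity that macrophages and epithelium secrete and that is known to promote type 2 inflammation in the mouse lung. Signals were 19343, 20608 and 20285 in AdV-IL4 mice, 15175, 15565 and 13795 in AdV-IL4d2 mice, and 7624, 16016 and 9296 in AdV-NULL mice. The AdV-IL4 arrays were tight and above all others, the AdV-IL4d2 arrays were tight and in between, and the AdV-NULL arrays were spread because mouse 2 lay above every AdV-IL4d2 mouse. The rise in AdV-IL4 against AdV-NULL was 1.92-fold (0.94 ± 0.20, 95% interval 0.51 to 1.38, limma adjusted p = 0.0116). Its call was lost without AdV-NULL mouse 1 and AdV-IL4 mouse 2 (log2 difference 0.70, limma adjusted p = 0.0723). That fit left 3 of the 9 member probe sets called in AdV-IL4 against AdV-NULL. Calls among all tested probe sets fell as well, from 2546 with all arrays to 1068 in that fit.

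Chia1 encodes the acidic mammalian chitinase, an active enzyme of airway epithelium, macrophages and stomach that is known to be induced in type 2 responses of the mouse lung. It read 5963, 5625 and 5800 in AdV-IL4 mice, 1552, 2054 and 1990 in AdV-IL4d2 mice, and 1677, 2320 and 2473 in AdV-NULL mice. The AdV-IL4 arrays agreed to within 2.91% of their mean (SD) and were above all others, and the remaining 6 arrays formed one range. Chia1 rose 2.71-fold in AdV-IL4 against AdV-NULL (1.44 ± 0.14, 95% interval 1.13 to 1.75, limma adjusted p = 0.000120), a smaller fold than that of Chil4 with a far smaller error.

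**Figure D1:**
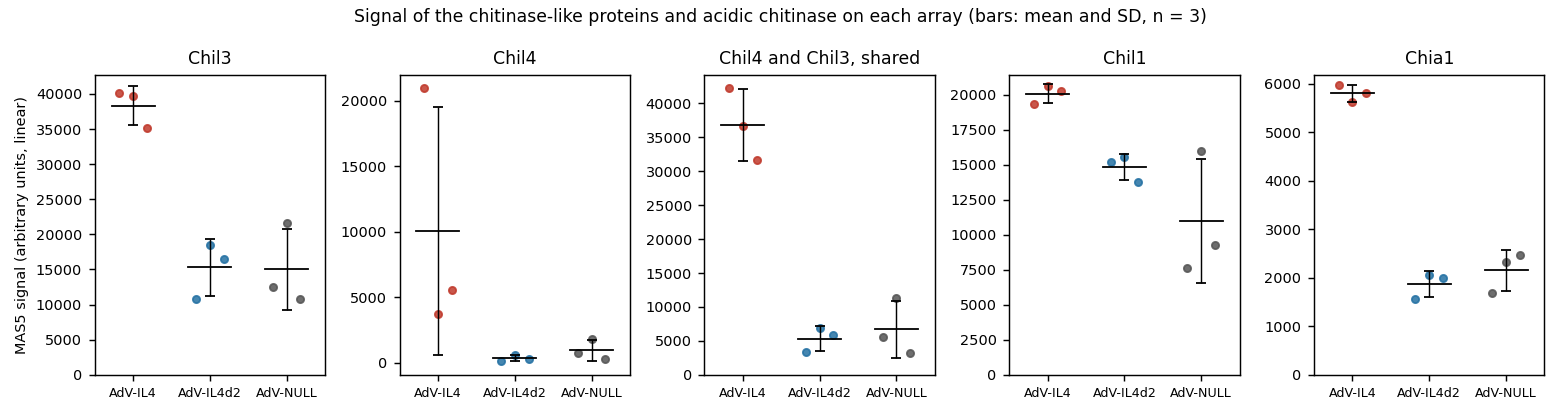
MAS5 signal (linear axis) of Chil3, Chil4, the probe set shared by Chil4 and Chil3, Chil1 and Chia1, with 1 point per array and bars for the mean and SD of the 3 arrays of a group. In each panel the 3 AdV-IL4 arrays lie above the other 6, and AdV-IL4 mouse 1 stands out for Chil4 at 20941.

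Chit1 encodes chitotriosidase, the other active chitinase, known as a product of activated macrophages in humans. Its signal was 185, 210 and 229 in AdV-IL4 mice, 226, 130 and 219 in AdV-IL4d2 mice, and 230, 127 and 247 in AdV-NULL mice. These values lie near the medians of the arrays and the 3 groups overlap. The log2 difference of AdV-IL4 against AdV-NULL was 0.09 (95% interval -0.50 to 0.68, limma adjusted p = 0.871), so a change of up to 1.60-fold upward lies inside the interval.

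Chid1 encodes a secreted lysosomal protein with a chitinase-like domain whose human form, SI-CLP, binds the macrophage receptor stabilin-1, and it has 2 probe sets here. The first read 213, 200 and 254 in AdV-IL4 mice, 276, 251 and 158 in AdV-IL4d2 mice, and 191, 139 and 220 in AdV-NULL mice. The second read 333, 309 and 217 in AdV-IL4 mice, 253, 266 and 221 in AdV-IL4d2 mice, and 254, 225 and 219 in AdV-NULL mice. Groups overlapped for both, and the log2 differences of AdV-IL4 against AdV-NULL were 0.27 and 0.26 (limma adjusted p = 0.507 and 0.392).

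Ctbs removes N-acetylglucosamine from the reducing end of glycoprotein sugars in the lysosome and has 3 probe sets. The first read 284, 172 and 303 in AdV-IL4 mice, 171, 267 and 217 in AdV-IL4d2 mice, and 254, 329 and 348 in AdV-NULL mice. The second read 173, 235 and 234 in AdV-IL4 mice, 171, 252 and 230 in AdV-IL4d2 mice, and 225, 281 and 258 in AdV-NULL mice. Groups overlapped for both, with log2 differences of -0.31 and -0.24 in AdV-IL4 against AdV-NULL (limma adjusted p = 0.441 and 0.471). The third was above its array's median on 1 of 9 arrays and did not pass the filter. It read 110, 111 and 35.6 in AdV-IL4 mice, 98.7, 144 and 131 in AdV-IL4d2 mice, and 117, 184 and 90.9 in AdV-NULL mice. In the fit without a filter its log2 difference was -0.60 in AdV-IL4 against AdV-NULL (limma adjusted p = 0.487).

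**Figure D2:**
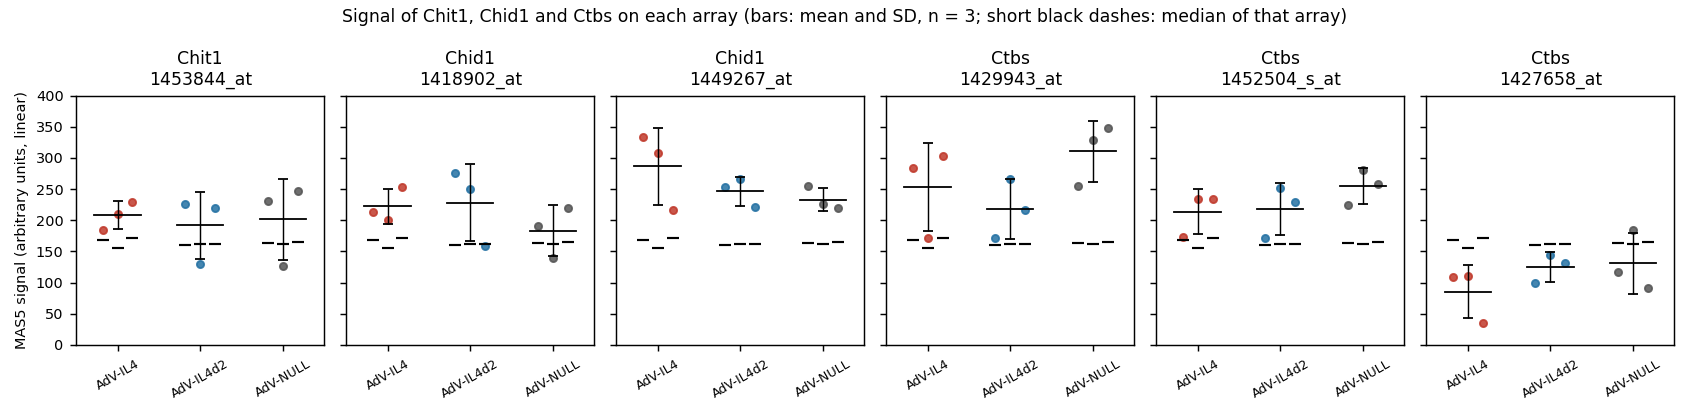
MAS5 signal (linear axis) of the probe sets of Chit1, Chid1 and Ctbs, with 1 point per array, bars for mean and SD (n = 3) and a short dash for the median of that array. The groups overlap in every panel, and the points lie between 35.6 and 348, around the array medians of 156 to 171.

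With IL-4d2, none of the 9 tested member probe sets passed the test against AdV-NULL, where 1.32% of all tested probe sets did. At an unadjusted p under 0.05 there was 1 of the 9, Chil1, beside 14.4% of all tested probe sets, and no member had groups without overlap, beside 21.3% of all. The median of the 9 log2 differences was -0.05. Both comparisons against the empty virus use the same 3 AdV-NULL arrays, so their values are not independent of each other.

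For Chil3 the log2 difference of AdV-IL4d2 against AdV-NULL was 0.06, with a 95% interval of -0.45 to 0.57 (limma adjusted p = 0.943). For Chia1 it was -0.20 (-0.51 to 0.11, limma adjusted p = 0.577). Both intervals end below the differences of 1.42 and 1.44 measured with IL-4. For Chil4 the value was -1.21 with a wide interval of -2.74 to 0.33 (limma adjusted p = 0.477), and the AdV-IL4d2 array of mouse 1, at 145, was the lowest of all. Without AdV-NULL mouse 2 the Chil4 difference was -0.53 and without AdV-NULL mouse 3 it was -1.87. Chil1 was the member nearest to a call, 1.42-fold higher (0.51, interval 0.07 to 0.94, unadjusted p = 0.0256, limma adjusted p = 0.261). All AdV-IL4d2 arrays were above 2 AdV-NULL arrays and below AdV-NULL mouse 2, and without that mouse the difference was 0.82 and passed (limma adjusted p = 0.00173). The other member probe sets had log2 differences of -0.05 for Chit1, 0.28 and 0.08 for Chid1 and -0.49 and -0.22 for Ctbs, with limma adjusted p between 0.363 and 0.956.

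Set directly against each other, AdV-IL4 lungs had more Chil3, Chil4 and Chia1 than AdV-IL4d2 lungs. Of the 9 tested member probe sets, 3 were called, all higher in AdV-IL4, beside 1.75% of all tested probe sets called, 0.911% as higher. Groups did not overlap for 4 of the 9 (these and Chil1), beside 22% of all, 11% with AdV-IL4 higher. Chil4 differed 24.2-fold (4.60 ± 0.71, 95% interval 3.06 to 6.13, limma adjusted p = 0.00748), which ranked 2nd among all tested probe sets. Without AdV-IL4 mouse 1 its log2 difference was 3.86. Chia1 differed 3.11-fold (1.64 ± 0.14, limma adjusted p = 0.000317), and Chil3 2.57-fold (1.36 ± 0.23, limma adjusted p = 0.0138). The Chil3 call was lost by a narrow margin without AdV-IL4d2 mouse 1 (adjusted p = 0.0532) or mouse 3 (adjusted p = 0.0507), with log2 differences of 1.13 and 1.43.

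Chil1 did not pass the test between the cytokine forms, although its 3 AdV-IL4 arrays all lay above its 3 AdV-IL4d2 arrays. Its log2 difference was 0.44 (95% interval 0.00 to 0.87, unadjusted p = 0.0485, limma adjusted p = 0.301), so a change of up to 1.83-fold lies inside the interval. It was called in 1 of the 9 fits that left out 1 array, that without AdV-NULL mouse 2 (limma adjusted p = 0.0356), and in the fit on the arrays of these 2 groups alone (limma adjusted p = 0.0297). The probe set shared by Chil4 and Chil3 differed 7.17-fold (2.84 ± 0.37, limma adjusted p = 0.00310). Differences for the tested probe sets of Chit1, Chid1 and Ctbs lay between -0.02 and 0.19 on the log2 scale, and the third Ctbs probe set had -0.57 in the fit without a filter (limma adjusted p = 0.620).

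**Figure D3:**
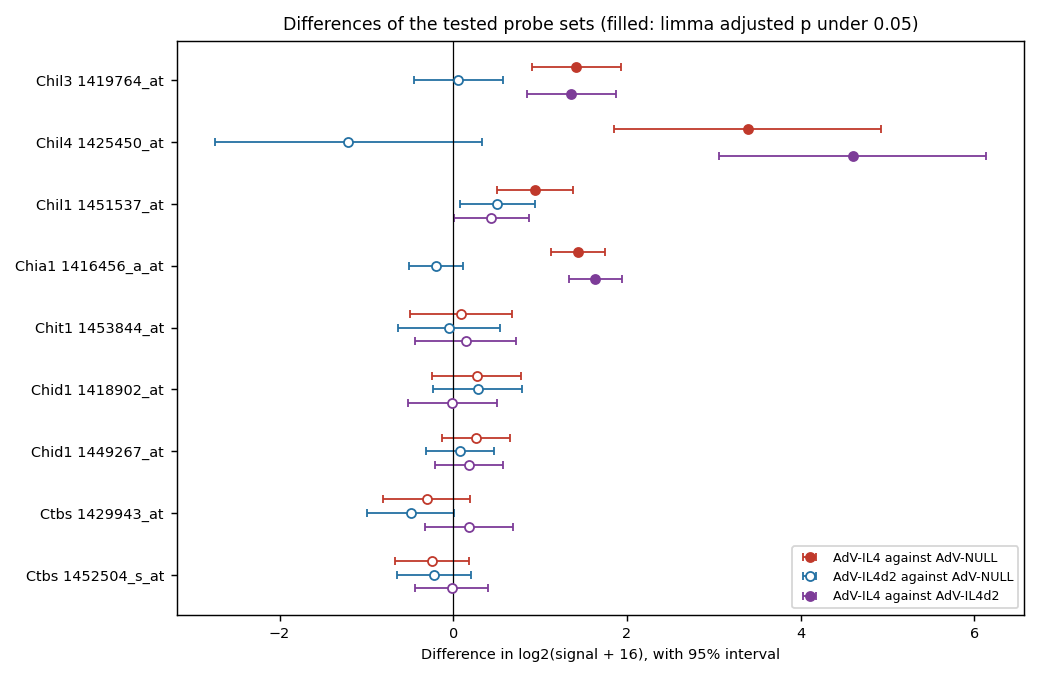
Differences in log2(signal + 16) for the 9 tested member probe sets in the 3 comparisons, with 95% intervals, and filled points where the limma adjusted p is under 0.05. Chil3, Chil4 and Chia1 are filled in both comparisons with AdV-IL4 on top, Chil1 in AdV-IL4 against AdV-NULL alone, and no point of AdV-IL4d2 against AdV-NULL is filled.

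Among 14 listed genes for binding chitin or chitinase-like proteins, 8 were tested, and 4 of the 8 rose in AdV-IL4 against AdV-NULL with none falling (median log2 difference 0.50), beside 5.6% of all tested probe sets called higher. Clec7a, the fungal glucan receptor Dectin-1, rose 3.31-fold (limma adjusted p = 0.00120). Cd44, a hyaluronan receptor also described as a co-receptor of Chil1, rose 1.43-fold (adjusted p = 0.0169), and Mrc1, the mannose receptor, 1.42-fold (adjusted p = 0.0356). The fourth was Lgals3, galectin-3, at 1.41-fold (adjusted p = 0.0383). Tmem219, a described co-receptor of Chil1, had a log2 difference of -0.16 (adjusted p = 0.700), Tlr2 0.00 and Lysmd3 0.09, and Il13ra2, the described Chil1 receptor, did not pass the filter. With IL-4d2 none of the 8 passed against AdV-NULL (median -0.05), beside 1.32% of all tested probe sets. In AdV-IL4 against AdV-IL4d2 Clec7a (2.96-fold), Lgals3 (1.82-fold) and Mrc1 (1.58-fold) were higher, 3 of 8, beside 0.911% of all.

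A list of genes for the breakdown of sugar chains around Ctbs held lysosomal glycosidases, the lysosomal activator protein Gm2a and cytosolic enzymes of N-acetylglucosamine metabolism such as Nagk. Of its 17 tested genes 5 rose in AdV-IL4 against AdV-NULL and none fell (median 0.19), beside 5.6% of all tested probe sets called higher. The 5 were Gusb, Glb1, Hexa, Gm2a and Man2b1. The leading ones were Gusb, beta-glucuronidase, which acts on glycosaminoglycans, at 1.51-fold (limma adjusted p = 0.0152), Glb1, beta-galactosidase, at 1.48-fold (adjusted p = 0.0208), and Hexa, the alpha subunit of beta-hexosaminidase, at 1.46-fold (adjusted p = 0.00392). None passed with IL-4d2 against AdV-NULL (median 0.03), beside 1.32% of all, or between the cytokine forms (median 0.16), beside 1.75%. Of 5 further relatives in family 18, Ovgp1 (log2 difference 0.21) and Engase (0.20) were tested and neither passed. Ovgp1 lies in the chromosome 3 cluster beside the genes that rose.

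The genes that IL-4 is known to induce in macrophages together with Chil3 mostly rose too. Of 13 tested, 8 were higher in AdV-IL4 against AdV-NULL and none lower (median 0.82), beside 5.6% of all tested probe sets called higher. The leading ones were Mmp12, macrophage elastase, at 18.8-fold (limma adjusted p = 8.50e-06), Arg1, arginase, at 9.33-fold (adjusted p = 0.000192), and the transcription factor Irf4 at 4.74-fold (adjusted p = 0.00499). Irf4 was also 3.15-fold higher in AdV-IL4d2 against AdV-NULL without passing (log2 difference 1.66, limma adjusted p = 0.0708). Between the cytokine forms Irf4 differed by 0.59 and was not called (limma adjusted p = 0.501). Retnla, which encodes the secreted protein often named beside Ym1, had a log2 difference of 0.82 in AdV-IL4 against AdV-NULL that did not pass (adjusted p = 0.0686). In AdV-IL4d2 against AdV-NULL, 1 of the 13 passed, beside 1.32% of all tested probe sets, and the median of the list was -0.07. The 1 was Mgl2, a lectin of macrophages and dendritic cells, which fell by 0.56 on the log2 scale (limma adjusted p = 0.0460). Between the cytokine forms 6 of the 13 were higher in AdV-IL4 (median 0.66), beside 0.911% of all tested probe sets, with Mmp12 at 14.8-fold and Arg1 at 12.4-fold.

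Markers of the cells that can make these proteins moved in different ways, and their counts stand beside 10.7% of all tested probe sets called in AdV-IL4 against AdV-NULL and 1.32% in AdV-IL4d2 against AdV-NULL. Markers of resident alveolar macrophages, counted without Chil3, gave 2 higher (Itgax, 3.01-fold, and Mrc1) and 2 lower (Marco, log2 difference -2.55, and Fabp1, -2.40) of 9 tested in AdV-IL4 against AdV-NULL. Their 10 measured genes summed to 20181 to 20623 in AdV-IL4 mice, 16241 to 19325 in AdV-IL4d2 mice and 19064 to 26334 in AdV-NULL mice, with no separation of AdV-IL4 from AdV-NULL. Markers of recruited macrophages and monocytes gave 6 higher of 9, led by Gpnmb (5.40-fold) and Trem2 (4.75-fold), and summed to 57828 to 63480 in AdV-IL4 mice, 47980 to 55473 in AdV-IL4d2 mice and 40128 to 55274 in AdV-NULL mice. C1qa and C1qb of this list were also higher in AdV-IL4d2 against AdV-NULL, 2 of 9. Neutrophil markers gave 2 lower of 5 in AdV-IL4 against AdV-NULL, S100a8 (-1.97) and S100a9 (-2.32), and none called with IL-4d2. Club cell markers gave 3 lower of 8 with IL-4, Cckar, Cldn10 and Cyp4b1, and none called with IL-4d2. B cell and plasma cell markers gave 5 higher of 5 with IL-4 and 4 higher of 5 with IL-4d2, and summed to 12955 to 23458 in AdV-IL4 mice, 16199 to 35611 in AdV-IL4d2 mice and 2530 to 3749 in AdV-NULL mice. Salivary gland markers, included because that gland expresses acidic chitinase, summed to 295 to 436 in AdV-IL4 mice, 307 to 359 in AdV-IL4d2 mice and 394 to 506 in AdV-NULL mice, and Amy1, the 1 of the 4 that passed the filter, was not called. No marker of these lists was at 0, and their part in the results for the chitinase genes was not tested.

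Goblet cell markers are given beside Chil4, since both were uneven between mice. Of 7 tested, 2 rose in AdV-IL4 against AdV-NULL, beside 5.6% of all tested probe sets called higher. They were the anion exchanger Slc26a4 (20.4-fold, limma adjusted p = 0.000140) and the lectin Itln1 (13.4-fold, adjusted p = 0.0242). The mucin Muc5ac (log2 difference 2.81, adjusted p = 0.0564) and Clca1 (2.04, adjusted p = 0.0530) did not pass. The 9 measured markers summed to 84636, 26028 and 47761 in the AdV-IL4 mice, 19810, 15911 and 17191 in the AdV-IL4d2 mice, and 25179, 37784 and 8564 in the AdV-NULL mice. Within AdV-IL4 the order of the mice was that of Chil4, with mouse 1 highest and mouse 2 lowest. It was the same for AdV-NULL, with mouse 2 highest and mouse 3 lowest, but not for AdV-IL4d2, where the sums ran from 15911 to 19810 and mouse 1, lowest for Chil4, was highest. The order was not particular to goblet cell markers, as the club cell sums followed that of Chil4 in every group. In mouse order they were 148200, 121140 and 127490 with AdV-IL4, and 136250, 148330 and 138580 with AdV-IL4d2. With AdV-NULL they were 127690, 161350 and 123040. AdV-NULL mouse 2 was also the highest control for Chil3 and Chil1, but not for Chia1. Its sums of club cell markers (161350) and alveolar type 2 markers (165820) were the highest of the AdV-NULL mice. So were those of recruited macrophage and monocyte markers (55274) and of the genes IL-4 is known to induce in macrophages (68306). Its sums of resident alveolar macrophage (23229), neutrophil (10851) and ciliated cell markers (19897) were not the highest. How far these markers account for the spread of Chil4 was not tested.

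**Figure D4:**
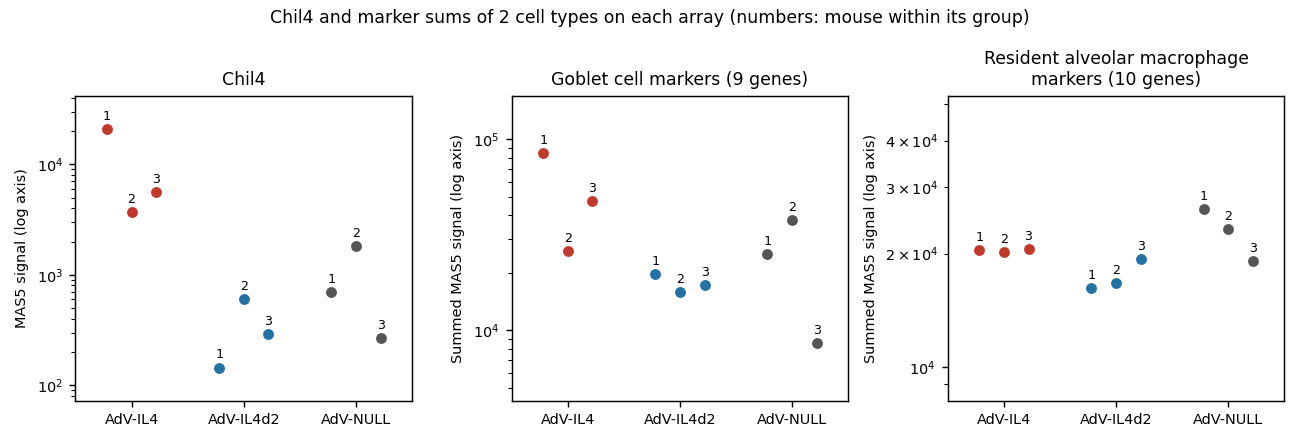
Signal of Chil4, summed signal of 9 goblet cell markers and summed signal of 10 resident alveolar macrophage markers on each array (log axes, numbers give the mouse within its group). Chil4 and the goblet cell sum rank the mice alike in AdV-IL4 (1, 3, 2) and in AdV-NULL (2, 1, 3), but not in AdV-IL4d2. The macrophage sums of AdV-IL4 and AdV-NULL share one range. Club cell sums, not drawn here, rank the mice as Chil4 does in every group.

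The genes whose centred log2 values over the 9 arrays came nearest to those of each responding member differed between members. Likeness was measured as the root mean square difference of centred log2 signals, and Chil4, the member with the largest change in both comparisons against AdV-NULL, was nearest to Mmp12 (0.984), the goblet cell products Clca1 (0.998) and Muc5ac (1.02), the actin-severing protein Scin (1.04) and Arg1 (1.04). These are loose likenesses, as Chil4 itself varied by 2.19 around its mean. The same was done for the other 3 after their values were seen. Chil3, which varied by 0.728, was nearest to the chemokine Ccl6 (0.105), Clec7a (0.174), the integrin Itgax (0.185), the proton pump subunit Atp6v0d2 (0.201) and Cd200r4 (0.206). Chia1, which varied by 0.751, was nearest to the growth factor Igf1 (0.169), the protease Mmp19 (0.196), the ribonuclease Rnase2b (0.197), the scavenger receptor Olr1 (0.200) and Itgax (0.223). Chil1, which varied by 0.468, was nearest to Birc3 (0.0851), Cd86 (0.0928), the proliferation marker Mki67 (0.0997), the B cell receptor Cd22 (0.103) and Gpr35 (0.110).

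**Figure D5:**
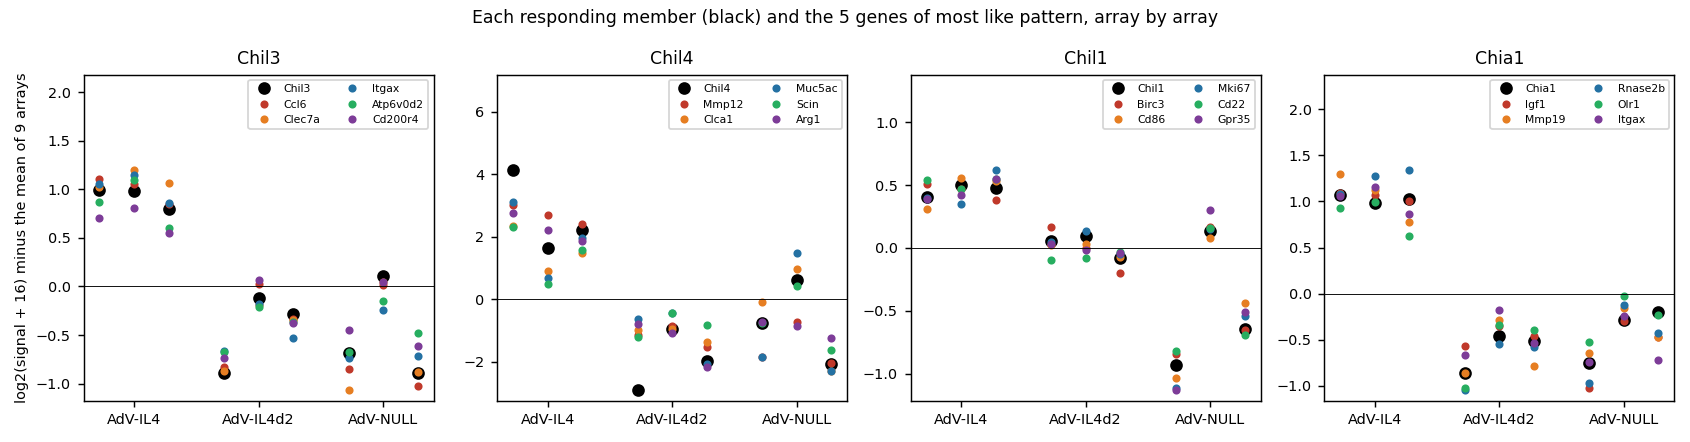
Values of log2(signal + 16) minus their mean over 9 arrays for Chil3, Chil4, Chil1 and Chia1 (black) and the 5 genes of most like pattern for each (colours), in mouse order within each group. The points of Chil3, Chia1 and Chil1 lie close to those of their 5 genes, whereas those of Chil4 scatter widely, with Chil4 above all 5 in AdV-IL4 mouse 1.

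MAS5 scaling sets all arrays to one typical signal, and other scalings bear on the directions above. Scaled to the hybridisation controls, the median of all tested probe sets in AdV-IL4 against AdV-NULL was -0.43 and 295 probe sets were called higher and 7156 lower; scaled to the poly-A controls it was -0.77, with 152 higher and 17971 lower, against 1335 higher and 1211 lower as deposited. Under these scalings Chil4 (2.95 and 2.60), Chia1 (0.99 and 0.64) and Chil3 (0.97 and 0.62) were still called higher, and Chil1 (0.50 and 0.15) under the hybridisation controls alone. Both tested Ctbs probe sets were called lower under the poly-A controls (-1.04 and -0.97), and the first also under the hybridisation controls (-0.72). In AdV-IL4 against AdV-IL4d2 the medians were -0.52 (89 higher, 11074 lower) and -1.04 (33 higher, 22470 lower), against 217 higher and 199 lower as deposited, and Chil1 changed sign to -0.10 and -0.64, the second of which passed the test (limma adjusted p = 0.00409). Relative to those medians the Chil1 values were 0.42 and 0.40. Under the poly-A controls Chil3 lost its call there (0.28, limma adjusted p = 0.188). In AdV-IL4d2 against AdV-NULL the medians were 0.08 (245 higher, 63 lower) and 0.27 (469 higher, 50 lower), against 221 higher and 93 lower as deposited. Chil4 was called lower under both (-1.12 and -0.95), though its larger difference as deposited, -1.21, was not called. The prior of these fits had 80.9 and infinite degrees of freedom, against 6.11 as deposited, so a probe set's own spread, wide for Chil4, hardly entered. The ratio of 3' to 5' signal of Gapdh, a measure of RNA integrity, was 1.71 ± 0.143 in AdV-IL4 mice, 1.46 ± 0.112 in AdV-IL4d2 mice and 1.28 ± 0.284 in AdV-NULL mice (SD, n = 3 each). That of Actb was 3.23 ± 0.486, 2.58 ± 0.226 and 2.65 ± 0.324 in the same groups, and the part of RNA integrity in the results was not tested.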

How the data were processed

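Whole-lung RNA of 9 mice was measured on 9 arrays, with groups taken from the labels. The authors deposited linear signal intensity values, 1 per probe set and array; the tools listed in the submitters' processing notes are GCOS, MAS5 and Affymetrix Expression Console 2.0. The 2% trimmed mean was 500.002 on each array, so each had been scaled to one level. Arrays have no read depth, and 3 mice per group limit the precision. Gene symbols came from the platform annotation, which lists 35890 probe sets, 34958 with 1 symbol and 932 with several.

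Signals were used as log2(signal + 16), so fold changes of dim probe sets are understated. Probe sets above their own array's median on at least 3 of 9 arrays were tested, without 64 control probe sets, leaving 23824. All 9 arrays entered 1 limma fit (limma 3.58.1, R 4.3.3; lmFit, eBayes with trend, 6 residual degrees of freedom). Tests were two-sided, adjusted by Benjamini-Hochberg over all tested probe sets, with a threshold of 0.05. The fit was tested on simulated data. The named genes were all members, up to 3 called genes per list and comparison, and the 5 genes most like the member with the largest change; Lgals3, Tmem219, Tlr2, Lysmd3, Il13ra2, Retnla, Muc5ac, Clca1 and the genes like Chil3, Chia1 and Chil1 were named after their values were seen. Each listed gene was represented by its brightest probe set on the log2 scale. Summed markers are sums of signals of all their measured genes.

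Members, lists, tests and alternatives were chosen with earlier results of these data known. Alternatives covered the pseudocount, the filter, 4 choices of scaling and variance, the arrays in the fit, the replicate block and each array left out. Promoter windows came from RefSeq (GRCm38.p6), and all 7 members matched. Probe sequences and detection calls were not used here.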

Additional observations from a re-analysis of the deposited data

Results flagged for a closer look

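The effects of the cytokine forms relative to AdV-NULL differed for 31 of 142 probe sets examined, by the direct limma contrast of AdV-IL4 against AdV-IL4d2 at an adjusted p under 0.05, beside 1.75% of all tested. The 142 are the tested members, the tested genes of the lists and the genes of like pattern, chosen with results known, so this share is a description of that choice. Values are log2 differences, positive where AdV-IL4 was higher. Among the chitinase family they were 1.64 for Chia1, 1.36 for Chil3, 4.60 for Chil4 and 2.84 for the probe set shared by Chil4 and Chil3. Of the binding partners, Clec7a gave 1.56, Lgals3 0.86 and Mrc1 0.66. Of the genes known to be induced by IL-4 in macrophages, Mmp12 gave 3.89, Arg1 3.63, Ccl17 1.70, Pdcd1lg2 1.19 and Mgl2 1.07. Macrophage markers went both ways, with Itgax at 1.48 and Gpnmb at 1.26, but Marco at -2.34 and Fabp1 at -1.53. The neutrophil markers S100a8 (-2.23) and S100a9 (-2.45), the club cell markers Cckar (-0.72), Cldn10 (-1.02) and Cyp4b1 (-0.61) and the ciliated cell marker Tppp3 (-0.70) were lower in AdV-IL4. The goblet cell marker Slc26a4 was higher, at 3.33. Genes named for a pattern like that of Chil3, Chil4 or Chia1 gave 1.95 for Rnase2b, 1.71 for Mmp19, 1.51 for Igf1, 1.43 for Olr1, 1.39 for Ccl6, 1.27 for Atp6v0d2, 1.04 for Cd200r4 and 2.28 for Scin; they were chosen for that likeness. Chil1 was not among the 31. Groups of 3 arrays were not searched for single outlying arrays.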

How the results depend on the processing

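Chil3, Chil4 and Chia1 in AdV-IL4 against AdV-NULL, and Chil4 and Chia1 in AdV-IL4 against AdV-IL4d2, were called in the same direction under all 20 alternatives. Scaling to the hybridisation controls gave 7451 called probe sets in AdV-IL4 against AdV-NULL, 11163 in AdV-IL4 against AdV-IL4d2, and 1 called member in AdV-IL4d2 against AdV-NULL (Chil4, -1.12). Scaling to the poly-A controls gave 18123, 22503 and, for AdV-IL4d2 against AdV-NULL, 519, with 2 called members there (Chil4 -0.95, Chil1 0.79) and 8 in AdV-IL4 against AdV-IL4d2, of which Chil4 and Chia1 were higher and Chil1, Chit1, both Chid1 and both tested Ctbs probe sets lower, while the Chil3 call was lost (0.28, adjusted p = 0.188). In those 2 fits the prior had 80.9 and infinite degrees of freedom, against 6.11 as reported, so a probe set's own spread, wide for Chil4, hardly entered. Without a trend 195 probe sets were called in AdV-IL4d2 against AdV-NULL and 165 in AdV-IL4 against AdV-IL4d2, where Chil3 was lost (adjusted p = 0.0619). With no filter AdV-IL4 against AdV-IL4d2 had 244. Without AdV-NULL mouse 1 and AdV-IL4 mouse 2 the counts were 1068, 200 and 237. Leaving out 1 array at a time gave 1313 (without AdV-NULL mouse 1) to 2210 probe sets in AdV-IL4 against AdV-NULL, 156 (without AdV-IL4d2 mouse 3) to 417 in AdV-IL4d2 against AdV-NULL and 110 (without AdV-IL4d2 mouse 3) to 446 in AdV-IL4 against AdV-IL4d2, and 0 to 1 called member in AdV-IL4d2 against AdV-NULL, the 1 being Chil1 without AdV-NULL mouse 2. Counts fell by over 1.5 times without AdV-NULL mouse 1 or 3 in AdV-IL4 against AdV-NULL, without these or any AdV-IL4d2 mouse in AdV-IL4d2 against AdV-NULL, and without AdV-IL4 mouse 2 or any AdV-IL4d2 mouse in AdV-IL4 against AdV-IL4d2. The replicate block gave 2427, 312 and 384 called probe sets and 4, 0 and 3 called members, changing no member call. Correlations of deviations ran from -0.069 to 0.116 between arrays of equal mouse number and from -0.133 to 0.132 between the others. Between AdV-IL4 and AdV-IL4d2 arrays they were 0.071 to 0.116 at equal numbers and -0.089 to -0.013 otherwise. The labels do not tie equal numbers together.

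Signs changed for members that were not called as deposited. In AdV-IL4 against AdV-NULL the hybridisation and poly-A scalings gave -0.14 and -0.46 for the first Chid1 probe set, -0.16 and -0.49 for the second and -0.32 and -0.64 for Chit1, which was between -0.19 and 0.25 with 1 array left out. In AdV-IL4d2 against AdV-NULL Chit1 gave 0.032 and 0.21, and -0.33 to 0.19 with 1 array left out; the poly-A scaling gave 0.078 for Chia1 and 0.037 for the second Ctbs probe set. Chil3 ran from -0.14 to 0.36 with 1 array left out, and without AdV-NULL mouse 1 and AdV-IL4 mouse 2 it was -0.04 and Chit1 0.06. In AdV-IL4 against AdV-IL4d2 the scalings gave -0.32 and -0.81 for the first Ctbs probe set, -0.32 and -0.83 for the second Chid1 probe set, -0.10 and -0.64 for Chil1 and -0.35 and -0.85 for Chit1, and the poly-A value of each of these 4 passed the test. With 1 array left out, the first Chid1 probe set ran from -0.24 to 0.14 (0.06 without both mice), the second Ctbs probe set from -0.17 to 0.12 and Chit1 from -0.10 to 0.27. Beyond the scalings' own shift of all probe sets, the cause was not tested.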
